A study of Rattus norvegicus with 22 samples.

Results

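The BCL2 family genes followed here were 10 members listed by role, out of 17172 genes in the count table, and each of the 10 was present in it. They comprise 3 anti-apoptotic members (Bcl2, Bcl2l1 and Mcl1), 2 effector members (Bax and Bak1) and 5 BH3-only members (Bid, Bad, Bbc3, Pmaip1 and Bcl2l11). All 10 were among the 12875 genes that passed the filter on low counts. RNA-seq was performed on bulk hippocampus from the injured side of adult male Sprague-Dawley rats, an outbred stock. TBI rats received a moderate lateral fluid percussion injury, in which a pulse of fluid strikes the exposed dura through an opening in the skull over the right hemisphere. Sham rats had the same anesthesia, craniectomy and hub placement without the pulse, so both arms share the surgery. Tissue was taken 1 day (n = 2 sham, n = 4 TBI) and 14 days (n = 4 sham, n = 4 TBI) after surgery, giving 14 libraries of 15065540 to 23743703 counts.

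BCL2 family proteins decide whether the outer mitochondrial membrane stays sealed during the intrinsic pathway of apoptosis. Effector proteins form pores that release cytochrome c, anti-apoptotic proteins hold effectors and activators in check, and BH3-only proteins carry stress signals that free or activate the effectors. In the injured brain the family has been studied because hippocampal neurons die in the hours and days after TBI. Much of its control is exerted on protein stability, cleavage, phosphorylation and location, none of which is read by mRNA counts.

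Mcl1 and Bak1 were the called members with the largest changes at day 1, and the 250 bases before their start sites are shown so that the sequence next to the measured transcripts can be read. The windows come from RefSeq on GRCr8, a later build than the rn5 assembly to which the reads were aligned, and are written 5′ to 3′ on the gene's own strand. Mcl1 lies at chr2:185907918-185908167 (plus strand, 62.0% GC) and Bak1 at chr20:5110975-5111224 (minus strand, 57.6% GC). Capitals mark the letters GGGCGG, read on either strand, which are the core of the GC box.
Mcl1: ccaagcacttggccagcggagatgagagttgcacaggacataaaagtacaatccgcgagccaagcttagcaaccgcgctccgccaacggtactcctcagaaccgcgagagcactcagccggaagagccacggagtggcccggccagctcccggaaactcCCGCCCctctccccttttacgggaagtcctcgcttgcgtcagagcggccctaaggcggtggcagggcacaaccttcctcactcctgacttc
Bak1: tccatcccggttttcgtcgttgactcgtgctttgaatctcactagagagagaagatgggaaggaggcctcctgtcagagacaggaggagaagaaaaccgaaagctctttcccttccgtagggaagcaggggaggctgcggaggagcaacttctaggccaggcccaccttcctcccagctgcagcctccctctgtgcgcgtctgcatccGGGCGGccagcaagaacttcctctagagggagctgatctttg
The GC box stood 91 bases before the Mcl1 start and 42 bases before the Bak1 start. It was present in 5 of the 11 windows that matched 8 members, 1 each for Bak1, Bcl2l11, Bid, Mcl1 and Pmaip1, and in 30.5% of all 33469 rat windows of that length. The 11 windows are not separate promoters, since Bcl2l1 had several, some of them overlapping, and each other matched member had 1. The AP-1 letters TGANTCA were in 0 of the 11 member windows and 6.34% of all windows, and the cyclic AMP response element TGACGTCA was in 0 of the 11 and 1.59% of all. The forkhead letters GTAAACA were in the windows of Bad and Bcl2l11, and in 3.21% of all windows. The ATF4 and CHOP letters TGATGNAA (3.40% of all windows) matched windows of Bcl2 and Bcl2l1. The STAT letters TTCNNNGAA (7.67% of all) matched windows of Bad and Bcl2l1, and the TATA letters TATAAA (12.9% of all) matched that of Bcl2. These are letter matches in short windows, not tested sites. Bax and Bbc3 were not analysed here for sequence.

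Levels are given as CPM, which here means counts per 1000000 of a library total scaled by TMM, a factor that corrects for a few abundant transcripts. Some libraries stood apart. TBI day 1 replicate 1 had a neuron marker sum of 3209 CPM, against 5635 to 5790 CPM in the other TBI day 1 samples. Its oligodendrocyte marker sum was 14624 CPM, against 3925 to 8485 CPM in those samples. Choroid plexus markers summed to 10599 CPM in sham day 1 replicate 1 and to 2024 and 8517 CPM in TBI day 14 replicates 2 and 3, against 112 to 239 CPM in the other 11 samples, with 1 of 9 markers at 0 throughout in every group. Without these 3 samples, a choice made after seeing the data, the day 1 log2 fold changes were 0.90 for Mcl1, 1.25 for Bak1 and 0.91 for Bax. Sham day 1 replicate 2 was then the only day 1 control, so no p-value is given.

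At 1 day post-injury, 3 of the 10 members rose relative to time-point–matched sham and 0 fell. The 3 were Bak1 (2.13-fold), Mcl1 (1.94-fold) and Bax (1.5-fold), called at an adjusted p under 0.05 by edgeR's quasi-likelihood test. Of all genes tested, 11.2% rose and 7.93% fell in this comparison. At an unadjusted p under 0.05, 6 members differed, all upward. Counts at an unadjusted p are given throughout without the share of all genes at that threshold. Limma-voom and DESeq2 called 3 and 4 members, also all upward. Over all genes, limma-voom called 1405 higher and 984 lower, and DESeq2 1716 and 1438. The median log2 fold change of the 10 members was 0.58, against −0.015 over all tested genes. Both effectors and 1 of 3 anti-apoptotic members passed the test, while 0 of 5 BH3-only members did so with edgeR or limma-voom. DESeq2 called 1 of the 5 (Bid), and 3 of the 5 had an unadjusted edgeR p under 0.05. Other edgeR fits did call BH3-only members. Bid and Pmaip1 were called without TBI day 1 replicate 4 and with all 6 sham samples as 1 group. Bbc3 was called without TBI day 1 replicate 3, and Bbc3 and Pmaip1 with a replicate block.

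**Figure D1:**
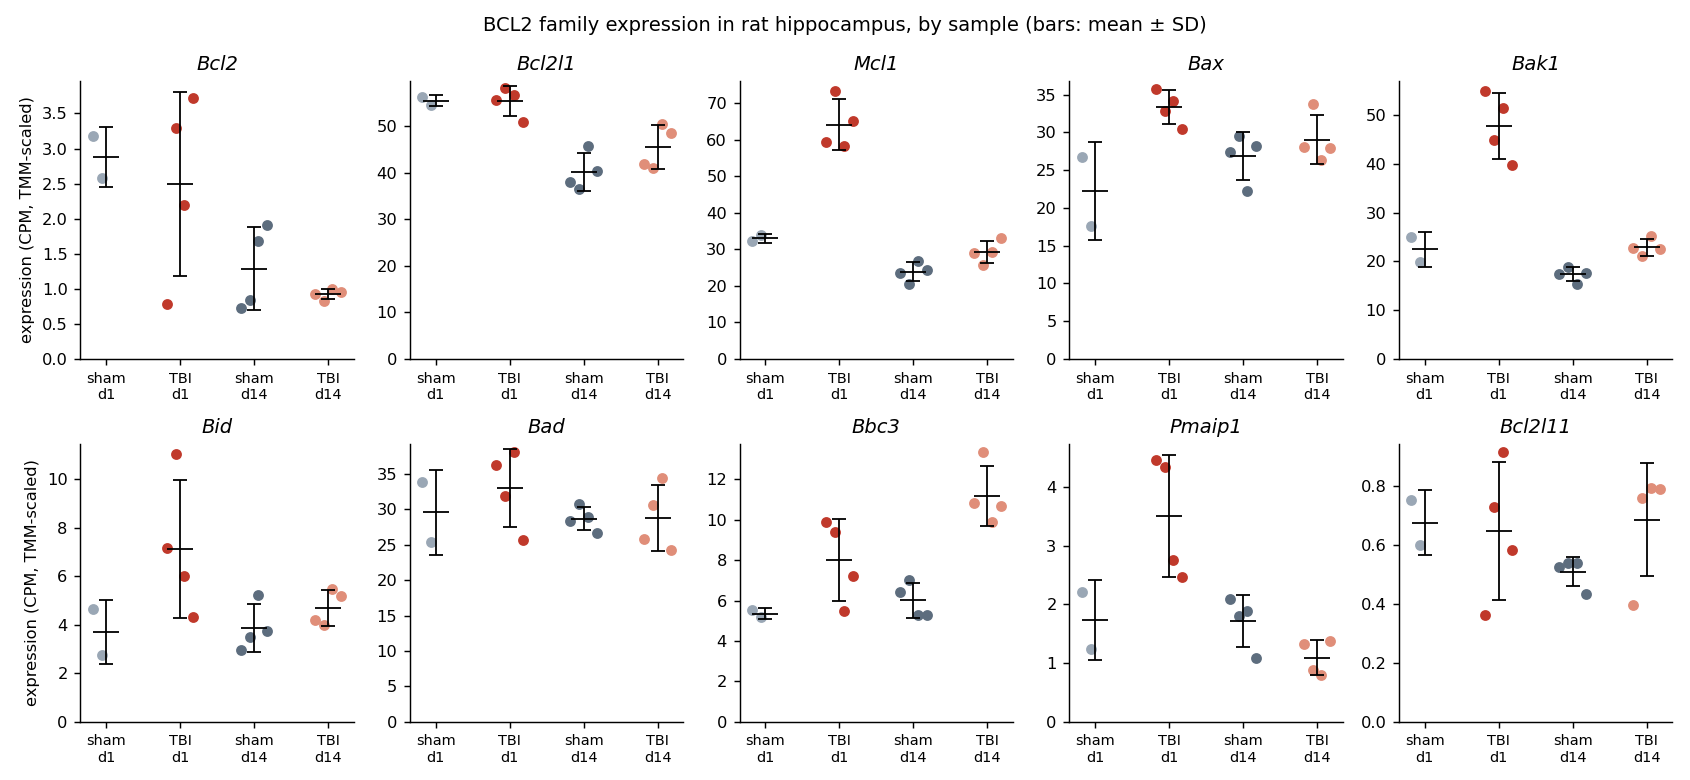
Expression of the 10 BCL2 family members in each of 14 hippocampal samples, in CPM (TMM-scaled, linear axes from 0), by group (sham and TBI at days 1 and 14). Points are samples, and bars give the mean and SD. For Mcl1 and Bak1 the 4 TBI day 1 samples lie above every other sample, for Bbc3 the 4 TBI day 14 samples lie above the sham samples, and for Bcl2 the TBI day 1 samples spread from 0.778 to 3.72.

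Mcl1, whose short-lived protein restrains BAK1 and BIM, was read at 59.5, 73.4, 58.2 and 65.2 CPM in the 4 TBI day 1 samples. The day 1 sham samples had 32.2 and 34.0 CPM of Mcl1. No TBI value came near the sham range. Mcl1 was 1.94-fold higher after TBI (95% CI 1.55 to 2.42), a log2 fold change of 0.95 (SE 0.15, edgeR adjusted p = 6.78e-04). At day 14 its levels were 29.1, 25.7, 29.4 and 33.1 CPM after TBI and 23.5, 20.6, 26.9 and 24.3 CPM in sham. These ranges overlapped, and the log2 difference of 0.30 (SE 0.12) did not pass (edgeR adjusted p = 0.268). In the order of Mcl1 levels, TBI day 1 stood apart at the top, sham day 1 and TBI day 14 overlapped, and sham day 14 was lowest with an overlap with TBI day 14.

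Bcl2l1 encodes BCL-XL, the anti-apoptotic protein that is abundant in adult neurons. Its levels were 55.6, 58.2, 56.7 and 50.8 CPM in TBI day 1 and 56.3 and 54.5 CPM in sham day 1. The sham values lay inside the TBI range. The ratio of TBI to sham was 0.999 (95% CI 0.821 to 1.22, edgeR adjusted p = 0.992). Bcl2l1 at day 14 had 41.9, 41.0, 50.5 and 48.5 CPM after TBI and 38.0, 36.4, 45.7 and 40.3 CPM in sham. The day 14 groups overlapped, with a log2 difference of 0.18 (SE 0.11, edgeR adjusted p = 0.568).

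Bcl2, the founding anti-apoptotic member, was read from only 11 to 83 counts per library. In TBI day 1 it stood at 0.778, 3.29, 2.20 and 3.72 CPM, and in sham day 1 at 3.18 and 2.58 CPM. The lowest TBI day 1 value came from replicate 1, which also had the lowest summed level of 6 hippocampal field markers (269 CPM, against 642 to 998 in the other TBI day 1 samples), and the part of that in the Bcl2 value was not tested. The log2 fold change was −0.20 (SE 0.49, edgeR adjusted p = 0.807), and 0.093 without that sample. At day 14 Bcl2 ranged from 0.820 to 0.994 CPM after TBI and from 0.721 to 1.91 CPM in sham (log2 difference −0.48, SE 0.45, edgeR adjusted p = 0.781). The 95% interval of the day 1 log2 difference ran from −1.24 to 0.85, so that changes of either sign within it were compatible with these samples.

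Bak1, the effector that sits constitutively in the outer mitochondrial membrane, stood at 55.0, 44.9, 51.5 and 39.7 CPM in TBI day 1. The 2 sham day 1 samples had 25.0 and 19.9 CPM. Every TBI sample was above both. Bak1 was 2.13-fold higher (95% CI 1.66 to 2.72), a log2 fold change of 1.09 (SE 0.17, edgeR adjusted p = 4.56e-04). At day 14 Bak1 had 22.7, 21.0, 25.3 and 22.5 CPM after TBI and 17.4, 18.9, 15.5 and 17.7 CPM in sham. The day 14 groups also did not overlap, but the log2 difference of 0.40 (SE 0.13) missed the threshold across all genes (edgeR adjusted p = 0.132). It passed when only the 8 day 14 samples entered the model.

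Bax encodes the effector that moves from the cytosol to mitochondria on activation. Its 4 TBI day 1 samples had 35.8, 32.9, 34.2 and 30.4 CPM, and the sham day 1 samples, farther apart than for Mcl1 or Bak1, had 26.8 and 17.6 CPM. The groups did not overlap, and the 1.5-fold difference (95% CI 1.15 to 1.96) passed narrowly (edgeR adjusted p = 0.0341). The call depended on single samples. Without sham day 1 replicate 2 the log2 fold change of Bax was 0.31, and without replicate 1 it was 0.92, each against the 1 sham library left. The call was lost without TBI day 1 replicate 1, 2 or 3, although the log2 fold change stayed at 0.55, 0.59 and 0.57 (edgeR adjusted p = 0.0538, 0.0513 and 0.0569). With only the 6 day 1 samples in the fit it was 0.61 (edgeR adjusted p = 0.20). At day 14 Bax ranged from 26.3 to 33.8 CPM after TBI and from 22.2 to 29.5 CPM in sham, overlapping ranges (edgeR adjusted p = 0.865).

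Among BH3-only members, Bid, whose protein is cut by caspase-8 and so ties death receptors to mitochondria, had 7.16, 11.0, 6.01 and 4.34 CPM in TBI day 1. Sham day 1 had 4.63 and 2.77 CPM of Bid. The lowest TBI sample fell inside the sham range, and the log2 difference of 0.95 (SE 0.36) did not pass with edgeR (adjusted p = 0.0759), although DESeq2 called it. Pmaip1, which encodes NOXA, a binder of MCL1, had 4.46, 4.34, 2.75 and 2.46 CPM in TBI day 1 against 2.21 and 1.24 CPM in sham. The Pmaip1 groups did not overlap, from 27 to 107 counts per library, and the log2 difference was 1.02 (SE 0.40, edgeR adjusted p = 0.0824). Bbc3, which encodes PUMA, a BH3-only protein that binds every anti-apoptotic member, had 9.91, 9.38, 5.50 and 7.21 CPM in TBI day 1 and 5.55 and 5.16 CPM in sham. Its lowest TBI day 1 sample lay between the sham values, and the log2 difference of 0.58 (SE 0.24) did not pass (edgeR adjusted p = 0.109).

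Bad, a sensitizer whose protein is inactivated by phosphorylation, ranged from 25.7 to 38.1 CPM in TBI day 1 and from 25.4 to 33.8 CPM in sham day 1. Its log2 difference was 0.16 (SE 0.19, edgeR adjusted p = 0.588). Bcl2l11 encodes BIM, an activator of BAX and BAK1, and had only 6 to 20 counts per library. It ranged from 0.363 to 0.917 CPM in TBI day 1 and from 0.599 to 0.754 CPM in sham day 1, with a log2 difference of −0.05 (95% CI −0.99 to 0.89). At this depth, changes of Bcl2l11 in either direction within that wide interval were compatible with the counts.

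By 14 days post-injury, 1 of the 10 members passed the test, Bbc3, which rose, while 0 fell. Of all genes tested, 4.07% rose and 0.365% fell at day 14. Beside Bbc3, Mcl1 and Bak1 had an unadjusted p under 0.05, and limma-voom and DESeq2 each called 1 member, Bbc3. Over all genes at day 14, limma-voom called 439 higher and 40 lower, and DESeq2 674 and 119. The median log2 fold change of the members was 0.23, against −0.031 over all genes.

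Bbc3 stood at 10.8, 13.4, 9.89 and 10.7 CPM in TBI day 14 and at 6.42, 7.03, 5.30 and 5.28 CPM in sham day 14. All 4 TBI samples were above all 4 sham samples. Bbc3 was 1.86-fold higher (95% CI 1.39 to 2.49), a log2 fold change of 0.90 (SE 0.20, edgeR adjusted p = 0.0128). Its highest sample, replicate 2, was 1 of 2 TBI day 14 samples that carried choroid plexus transcripts (marker sum 2024 CPM). The other, replicate 3, carried more of them (8517 CPM) and had the lowest Bbc3 of the 4 TBI samples, 9.89 CPM. The part of these transcripts in the Bbc3 values was not tested. Without TBI day 14 replicate 2 the adjusted p of Bbc3 was 0.0517 by edgeR, and it was 0.052 and 0.0552 without sham day 14 replicate 3 or 4. With all 3 samples rich in choroid plexus transcripts left out, the Bbc3 log2 difference was 0.86 (edgeR adjusted p = 0.0944).

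The remaining BH3-only members gave no call at day 14. Pmaip1 had 1.33, 0.879, 0.795 and 1.37 CPM after TBI and 2.1, 1.80, 1.89 and 1.09 CPM in sham. The groups overlapped through 1 sham sample, and the log2 difference of −0.65 (SE 0.33) did not pass (edgeR adjusted p = 0.447). Bid ranged from 3.98 to 5.47 CPM after TBI and from 2.95 to 5.25 CPM in sham, and Bad from 24.2 to 34.5 CPM after TBI and from 26.7 to 30.8 CPM in sham. Both pairs of ranges overlapped (edgeR adjusted p = 0.806 and 0.996). Bcl2l11 ranged from 0.398 to 0.795 CPM after TBI and from 0.435 to 0.541 CPM in sham (edgeR adjusted p = 0.759).

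**Figure D2:**
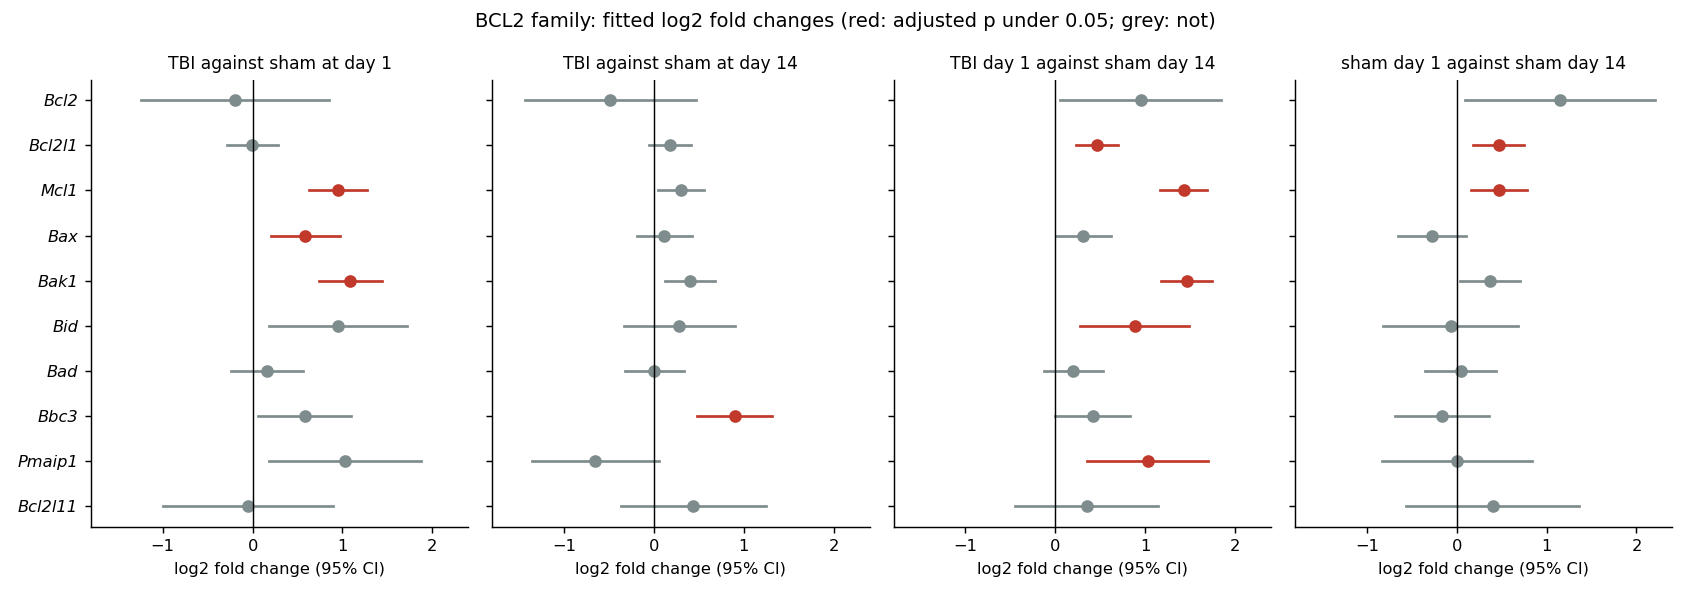
Fitted log2 fold changes of the 10 members with 95% confidence intervals in 4 comparisons (TBI against sham at day 1 and at day 14, TBI day 1 against sham day 14, and sham day 1 against sham day 14). Red marks an adjusted p under 0.05 and grey the rest. The comparisons share groups. Mcl1 and Bak1 are at 0.95 and 1.09 at day 1, Bbc3 is at 0.90 at day 14, and the intervals of Bcl2 and Bcl2l11 are the widest.

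Whether the effect of TBI on a member differed between the days was tested as the difference of the day 1 and day 14 log2 fold changes. By edgeR, 0 of the 10 members passed, while 2.24% of all genes had a higher and 1.44% a lower effect at day 1. Mcl1, Bak1 and Pmaip1 had an unadjusted p under 0.05, and these 3 were called by DESeq2 and 0 by limma-voom. Over all genes, DESeq2 called 600 with a higher and 453 with a lower effect at day 1, and limma-voom 178 and 100. The difference was 0.66 for Mcl1 (SE 0.19, edgeR adjusted p = 0.0722) and 0.69 for Bak1 (SE 0.21, edgeR adjusted p = 0.0787). Pmaip1 had the largest, 1.68 (SE 0.52, edgeR adjusted p = 0.0858), with a positive TBI effect at day 1 and a negative one at day 14. For Bbc3, the member called at day 14 and not at day 1, the difference was −0.32 (SE 0.31, edgeR adjusted p = 0.602), so that its effects at the 2 days were not shown to differ.

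Because the day 1 sham group held only 2 samples, TBI day 1 was also set against the 4 sham day 14 samples, a comparison that mixes injury with days since surgery and shares its controls with the day 14 test. By edgeR 5 of 10 members were higher (Mcl1, Bak1, Bcl2l1, Pmaip1 and Bid) and 0 lower, at an unadjusted p under 0.05 as well, where 7 were higher. Of all genes, 25.0% were higher and 21.0% lower, and limma-voom and DESeq2 each called 5 members. Over all genes in this comparison, limma-voom called 3059 higher and 2836 lower, and DESeq2 3284 and 3003. Mcl1 was 2.69-fold and Bak1 2.75-fold higher (edgeR adjusted p = 6.67e-07 and 1.2e-06). Bax, at 1.24-fold, did not pass (edgeR adjusted p = 0.0891), while Bid and Pmaip1 were 1.85-fold and 2.04-fold higher (edgeR adjusted p = 0.0198 and 0.0153). The call of Bid was lost without sham day 14 replicate 1 or 2 or TBI day 1 replicate 2 (log2 0.78, 0.84 and 0.59), and that of Pmaip1 without sham day 14 replicate 4 (0.86).

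The sham groups themselves differed. By edgeR 2 of 10 members, Bcl2l1 and Mcl1, stood higher at day 1 than at day 14 among sham rats and 0 stood lower, beside 11.3% of all genes higher and 7.88% lower. At an unadjusted p under 0.05 there were 4 members, with Bcl2 and Bak1 added, all higher at day 1. Limma-voom and DESeq2 each called the same 2 members. Over all genes between shams, limma-voom called 1196 higher and 977 lower, and DESeq2 1721 and 1437. Bcl2l1 differed by 0.47 on the log2 scale (SE 0.13, edgeR adjusted p = 0.0251) and Mcl1 by 0.47 (SE 0.15, edgeR adjusted p = 0.0355). Neither group's samples overlapped with the other's for these 2 genes. Each of these calls was lost when sham day 14 replicate 1, 2 or 4 was omitted. The log2 difference stayed between 0.42 and 0.53 for Bcl2l1 and between 0.41 and 0.54 for Mcl1 in the 6 fits without 1 sham sample. These include the fits that left 1 sham day 1 library. For Bcl2l1, TBI day 1 stood 0.46 above sham day 14 and differed by −0.0020 from sham day 1 on the log2 scale. All 3 of these comparisons share a group with another. Bcl2 had 2.88 ± 0.42 CPM (SD, n = 2) in sham day 1 and 1.29 ± 0.59 CPM (SD, n = 4) in sham day 14, which did not pass (edgeR adjusted p = 0.115). Markers of other cell types moved with the sham groups as well, and their part in these differences was not tested. By edgeR and DESeq2, 8 of 8 tested choroid plexus markers were higher in sham day 1 (0 by limma-voom), where replicate 1 alone was rich in them. Without the 3 samples rich in choroid plexus RNA, which left 1 sham day 1 library, the log2 difference was 0.45 for Bcl2l1 and 0.52 for Mcl1. Of 4 red blood cell markers 2 were higher in sham day 1, with sums of 263 and 533 CPM against 93.4 to 244 CPM in sham day 14. Of the neuronal and hippocampal field markers, Rbfox3 and Snap25 were higher and Slc17a7 and Grik4 lower, and 1 of 5 astrocyte markers, Gja1, was higher. The 2 sham groups differ in days since surgery, and any difference in handling between them cannot be told apart from that.

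Groups without any overlap were counted as well. At day 1, 4 members had all TBI samples above all sham samples (Bak1, Bax, Mcl1 and Pmaip1) and 0 below, against 16.7% of all tested genes above and 14.1% below. At day 14 there were 2 (Bak1 and Bbc3), against 9.13% above and 5.86% below. In sham day 1 against sham day 14 there were 5 above (Bak1, Bcl2, Bcl2l1, Bcl2l11 and Mcl1) and 0 below. The shares of all genes were 21.3% and 20.1%. For TBI day 1 against sham day 14 there were also 5 above (Bak1, Bax, Bcl2l1, Mcl1 and Pmaip1), against 22.2% above and 17.8% below. Such separation was thus also common between the sham groups.

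The balance of effector and anti-apoptotic transcripts was described as the log2 ratio of their counts within a sample, which does not depend on how libraries are scaled. Transcript lengths differ, so only differences between groups can be read. The log2 ratio of Bax to Bcl2 was 2.92 ± 0.22 (SD, n = 2) in sham day 1 and 3.96 ± 1.11 (SD, n = 4) in TBI day 1. It was 4.50 ± 0.80 in sham day 14 and 4.97 ± 0.27 in TBI day 14 (SD, n = 4 each). The TBI and sham ranges overlapped at both days, and the day 1 difference of 1.04 was 0.52 without TBI day 1 replicate 1.

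The log2 ratio of Bax to Mcl1 at day 1 was −0.61 ± 0.48 (SD, n = 2) in sham and −0.94 ± 0.22 (SD, n = 4) after TBI, with overlapping ranges. Omitting replicate 2 of sham day 1 gave a difference of −0.67, and omitting replicate 1 gave 0.0078. At day 14 this ratio was 0.17 ± 0.33 in sham and −0.014 ± 0.285 after TBI (SD, n = 4 each), again with overlap.

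The log2 ratio of Bax to Bcl2l1 at day 1 was −1.35 ± 0.40 (SD, n = 2) in sham and −0.73 ± 0.08 (SD, n = 4) after TBI, without overlap. The difference of 0.62 moved with the choice of sham sample, to 0.90 when replicate 1 of sham day 1 was omitted and to 0.34 when replicate 2 was. At day 14 the ratio was −0.58 ± 0.32 in sham and −0.65 ± 0.29 after TBI (SD, n = 4 each), with overlapping ranges and a difference of −0.066. Both sham day 1 samples lay below the other 12 samples in this ratio, the nearest of which was a sham day 14 sample at −1.04. Bak1 and Mcl1 both rose at day 1, and their log2 ratio, a measure added after seeing the data, was −0.57 ± 0.29 (SD, n = 2) in sham day 1 and −0.43 ± 0.33 (SD, n = 4) in TBI day 1. In sham and TBI day 14 it was −0.45 ± 0.28 and −0.36 ± 0.15 (SD, n = 4 each). The 4 groups overlapped in this ratio.

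**Figure D3:**
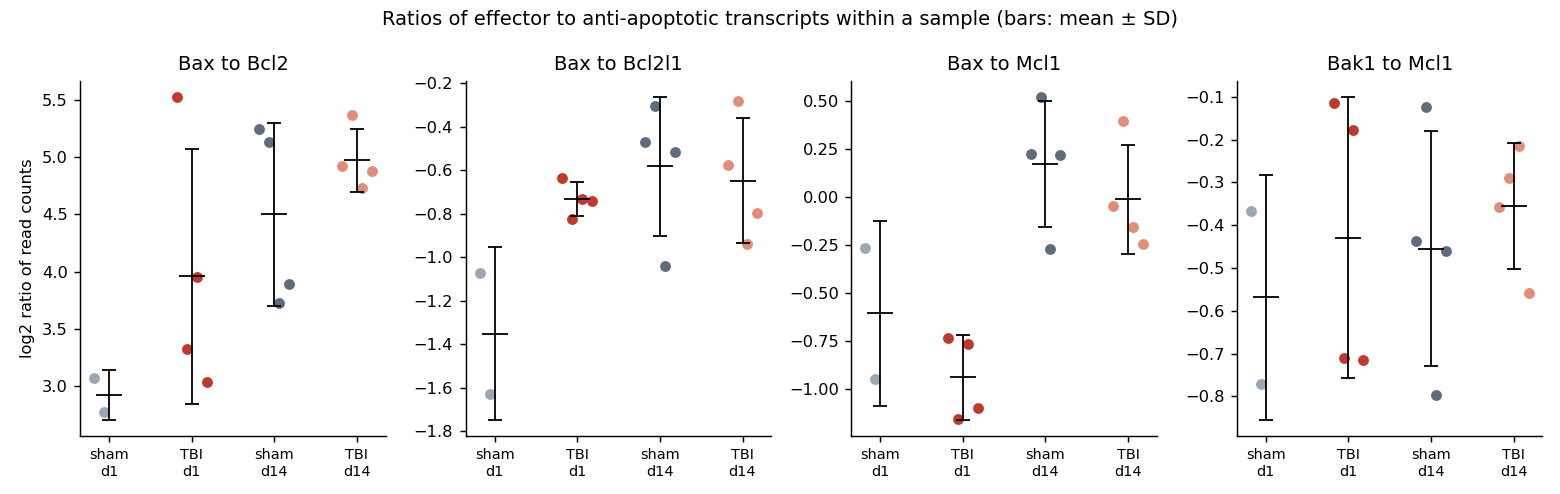
Log2 ratio of read counts of Bax to Bcl2, Bax to Bcl2l1, Bax to Mcl1 and Bak1 to Mcl1 in each of the 14 samples, by group, each panel with its own vertical axis. Points are samples, and bars give the mean and SD. Bax to Bcl2l1 is the only ratio of the 4 whose sham and TBI samples do not overlap at day 1, and Bak1 to Mcl1 has group means between −0.57 and −0.36.

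The genes whose log2 CPM followed each member called at day 1 most closely across the 14 samples were named by Pearson's r, as a description. The libraries share their group differences, so that any gene with the same group pattern scores high. For Mcl1 they were Trib1 (r = 0.991) and Klf6 (0.985). For Bak1 they were the acute-phase genes Lcn2 (0.982) and Lrg1 (0.976), with Nsmce2 (0.979). Bax was followed less closely, by Rhbdf1 (0.946), Efemp2 (0.945) and Pth1r (0.942).

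Other genes of the BCL2 family, from a list of 14 of which 11 were tested, gave 2 rises, 1 fall and 8 without a call at day 1 (median log2 fold change −0.14). Set beside this list, the lists below and the cell type markers, 11.2% of all tested genes rose and 7.93% fell at day 1. At day 14 the shares were 4.07% and 0.365%. Bcl2a1, an anti-apoptotic member made mainly by hematopoietic cells, rose from 2.29 ± 0.50 CPM (SD, n = 2) to 15.6 ± 4.8 CPM (SD, n = 4), or 2.77 on the log2 scale (SE 0.43, edgeR adjusted p = 5.57e-04). This was larger than the change of any of the 10 members at day 1. Bcl2l12 rose by 1.46 (SE 0.45, edgeR adjusted p = 0.0341), a call not made by limma-voom (adjusted p = 0.0675). Bok, an effector-like member, fell from 64.9 ± 16.8 CPM (SD, n = 2) to 33.2 ± 11.3 CPM (SD, n = 4), by 0.97 on the log2 scale (SE 0.25, edgeR adjusted p = 0.0168). At day 14, 1 of the 11 rose, Bcl2a1, by 1.73 (SE 0.34, edgeR adjusted p = 0.00572).

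Upstream of Bid, 5 of 10 genes of the death receptor arm rose at day 1 and 5 gave no call (list median 0.79 on the log2 scale). Tnfrsf1a, the main TNF receptor, rose from 22.0 ± 10.3 CPM (SD, n = 2) to 105 ± 18 CPM (SD, n = 4), or 2.27 on the log2 scale (SE 0.27, edgeR adjusted p = 5.45e-05). Fas rose by 2.54 (SE 0.58, edgeR adjusted p = 0.00717) from a sham pair of 0.277 and 1.72 CPM, and Tnfrsf10b, a TRAIL receptor, by 1.48 (SE 0.42, edgeR adjusted p = 0.0237). At day 14, 1 of the 10 rose, Tnfrsf1a, by 1.34 (SE 0.20, edgeR adjusted p = 6.85e-04).

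Downstream of the mitochondria, 3 of 15 genes for the apoptosome, caspases and their inhibitors rose at day 1 and 12 gave no call (median log2 fold change 0.39). Birc3, which encodes the inhibitor of apoptosis cIAP2, rose by 2.76 (SE 0.43, edgeR adjusted p = 5.85e-04) and Birc2, which encodes the related cIAP1, by 0.64 (SE 0.18, edgeR adjusted p = 0.0219). Birc5, better known as the mitotic gene for survivin, rose by 1.63 (SE 0.43, edgeR adjusted p = 0.0167), with TBI and sham samples overlapping, but not with limma-voom (adjusted p = 0.0503). At day 14, 1 of 15 rose, Birc3, by 1.37 (SE 0.33, edgeR adjusted p = 0.0259), and 0 passed with limma-voom (1 at an unadjusted edgeR p under 0.05), where the adjusted p of Birc3 was 0.094.

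Genes of the DNA damage response, a pathway that can act through Bax, Bbc3 and Pmaip1, gave 3 rises, 2 falls and 9 without a call among 14 tested genes at day 1 (median log2 fold change 0.27). Gadd45a, a stress gene, rose from 8.71 ± 1.63 CPM (SD, n = 2) to 42.5 ± 11.8 CPM (SD, n = 4), or 2.29 on the log2 scale (SE 0.26, edgeR adjusted p = 4.62e-05). Aen, a nuclease gene, rose by 1.07 (SE 0.21, edgeR adjusted p = 0.00292), and Perp, a membrane protein gene, fell by 1.98 (SE 0.47, edgeR adjusted p = 0.00994). At day 14, 1 of 14 rose, Gadd45a, by 1.01 (SE 0.20, edgeR adjusted p = 0.0065), and 13 gave no call.

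Regulators that act on BH3-only genes or proteins gave 3 rises, 1 fall and 14 without a call among 18 genes at day 1 (list median −0.29 on the log2 scale). Atf4, a stress-response transcription factor, rose from 263 ± 27 CPM (SD, n = 2) to 456 ± 37 CPM (SD, n = 4), by 0.79 on the log2 scale (SE 0.15, edgeR adjusted p = 0.00272). Trib3, an ATF4 target, rose from a total of 4 counts in sham to 60 counts after TBI, a rate ratio of 6.86 with a counting interval of 2.54 to 26.0 (edgeR adjusted p = 0.0329). E2f1 rose by 0.76 (SE 0.24, edgeR adjusted p = 0.0351), with overlapping groups, and by 0.62 with the replicate block (edgeR adjusted p = 0.0559), which ended the call. At day 14, 0 of the 18 passed with edgeR, limma-voom or DESeq2, and 2 had an unadjusted p under 0.05.

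Of 8 symbols listed for MCL1 turnover 4 were tested, and 0 passed at day 1 or day 14 with edgeR, limma-voom or DESeq2 (1 and 0 with an unadjusted p under 0.05). Of 11 tested partners of BAX and BAK1 at the outer membrane, 0 passed at day 1 with edgeR or limma-voom, 1 with DESeq2 and 1 at an unadjusted p under 0.05. At day 14, 1 of the 11 passed, Hk2, a hexokinase that binds mitochondria, which rose by 0.76 (SE 0.20, edgeR adjusted p = 0.0423) but did not pass with limma-voom (adjusted p = 0.0868).

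Of the 15 pathway genes named at day 1, Bcl2l12, Trib3 and E2f1 lost their calls in fits without 1 TBI day 1 sample, and the others kept theirs. Bcl2l12 and Trib3 were lost without TBI day 1 replicate 1 (1.14 and 2.30), Bcl2l12 and E2f1 without replicate 3 (1.41 and 0.64) and E2f1 without replicate 4 (0.71). Leaving out a sham day 1 sample left 1 control library, so only log2 values are given for those fits. Without sham day 1 replicate 2 they included 1.16 for Bcl2l12, 1.29 for Birc5, 0.72 for Birc2, 1.74 for Fas, 1.08 for Tnfrsf10b, −1.06 for Perp, 2.06 for Trib3 and 0.59 for E2f1. Without sham day 1 replicate 1 they included −0.68 for Bok, 0.57 for Birc2 and 4.35 for Fas. With only the 6 day 1 samples in the fit, 4 of the 15 stayed called (Bcl2a1, Birc3, Tnfrsf1a and Gadd45a) and 11 did not, among them Aen at 1.09 and Atf4 at 0.82 on the log2 scale (edgeR adjusted p = 0.0611 and 0.0537). The fit without the 3 samples rich in choroid plexus RNA also left 1 sham day 1 library. Its log2 values included 1.82 for Bcl2l12, −0.69 for Bok, 0.56 for Birc2, 3.73 for Trib3 and 0.94 for E2f1. Of the 5 named at day 14, 3 stayed called in all 8 fits without 1 day 14 sample (Bcl2a1, Tnfrsf1a and Gadd45a). The others were lost in 4 fits for Birc3 (1.08 to 1.44) and 6 for Hk2 (0.56 to 0.80), each including the fits without sham day 14 replicates 1, 2 and 3 and TBI day 14 replicate 1.

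**Figure D4:**
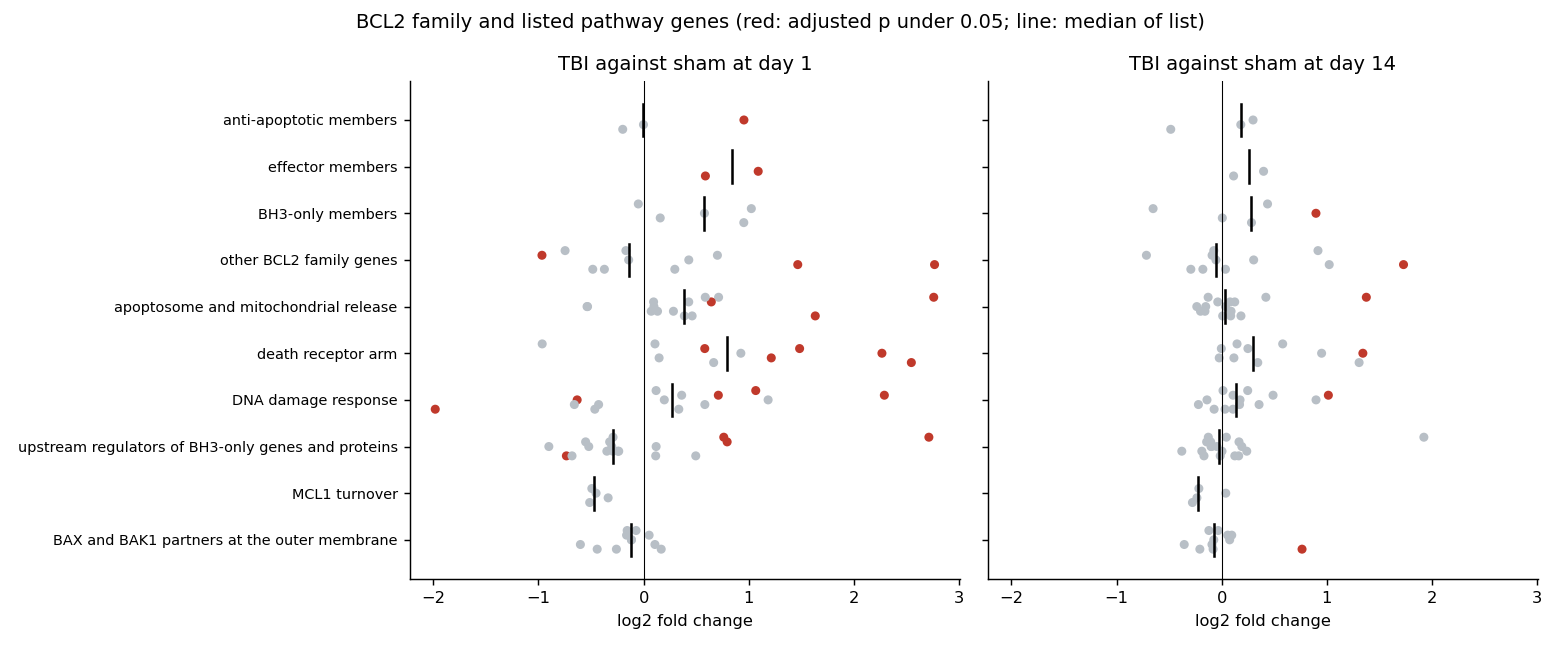
Log2 fold changes of the BCL2 family members by role and of 7 lists of related genes, TBI against sham at day 1 (left) and at day 14 (right). Points are tested genes, red where the adjusted p is under 0.05, and vertical lines are list medians. At day 1 both effectors are red and to the right of 0, the 5 BH3-only members are grey, and the death receptor arm has the highest median of the 7 lists of related genes, 0.79.

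Markers of cell types moved with the groups, and their part in the results on the BCL2 family was not tested. In bulk tissue, fewer cells of a type and less RNA per cell cannot be told apart. All 6 hippocampal field markers were detected in every group. At day 1, 2 of the 6 fell (Prox1 and Grik4) and 4 gave no call (median log2 fold change −1.13), with sums of 269 to 998 CPM after TBI and 997 and 1132 CPM in sham. At day 14, 0 of the 6 passed with edgeR, limma-voom or DESeq2, nor at an unadjusted p under 0.05, and the sums were 1007 to 1375 CPM after TBI and 1009 to 1118 CPM in sham. For neutrophils and monocytes, 4 of 4 tested markers rose at day 1, and the summed CPM of the 5 measured was 245 to 467 in TBI day 1 against 29.4 and 54.9 in sham day 1. At day 14 it was 60.3 to 180 after TBI and 29.1 to 35.9 in sham. For microglia, 2 of 6 markers rose and 2 fell at day 1 and 5 of 6 rose at day 14, with a sum of 391 to 471 after TBI and 198 and 345 in sham at day 1, and of 566 to 1037 after TBI and 233 to 307 in sham at day 14. For neurons, 3 of 7 markers fell at day 1, with sums of 3209 to 5790 in TBI day 1 and 6775 and 9658 in sham day 1. At day 1 also, 2 of 5 oligodendrocyte markers fell and 1 of 5 endothelial markers rose, while 0 of 5 astrocyte and 0 of 4 red blood cell markers passed with edgeR, limma-voom or DESeq2 (1 and 0 at an unadjusted p under 0.05). Of 8 tested choroid plexus markers, 7 were lower after TBI at day 1 by edgeR (median log2 fold change −6.19). DESeq2 called 7 and limma-voom 1. Sham day 1 replicate 1 was the only day 1 sample rich in these markers.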

How the data were processed

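RNA-seq libraries from ipsilateral hippocampus of 14 Sprague-Dawley rats were compared as 4 groups taken from the sample labels. The deposited table holds whole-number counts per gene, which the authors made with STAR 2.4.2a and featureCounts 1.5.0 on rn5 with UCSC genes, from a stranded poly(A) kit. Whether counting used strand is not given in the sources used here. From these counts, TMM factors and edgeR 4.0.16 quasi-likelihood tests (R 4.3.3) were computed in a model with 1 mean per group over all 14 samples, after filterByExpr by group, which left 12875 genes. Tests were two-sided, p-values were adjusted by Benjamini-Hochberg over all 12875 genes, and the threshold was 0.05. Fold changes are log2, SEs were taken from the F statistic, and intervals are 95%. P-values measure the spread between samples of a group, 2 to 4 per group, pooled over the 4 groups and partly shared across genes. Tests that use the 2 sham day 1 samples thus lean on the spread of the other groups. Correlations of log2 CPM used a prior count of 2. Intervals on counts cover counting error only.

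The members and the gene lists were chosen with earlier results of these data known. The text names all 10 members and, of each pathway list and day, the 3 called genes with the largest absolute log2 fold change, and, for members called at day 1, the 3 genes with the highest r. A few genes that these rules or lists would take in are not reported here, and the counts over lists leave out the listed ones. The tests were checked on counts simulated for TBI day 1 against sham day 1. Of 100 genes changed 1.5-fold, edgeR recovered 6, limma-voom 7 and DESeq2 26. Of 100 genes changed 3-fold, they recovered 77, 74 and 86, with 8, 5 and 28 false calls among the unchanged genes. The simulation changed no other genes of the 12875, whereas 11.2% were called higher and 7.93% lower at day 1 in the data. With so few changed genes the adjustment is stricter, so these shares may be too low for the data and cannot be carried over. A missing call at day 1 was still not read as the absence of a change. Replicates of a group differed well beyond sampling noise (chi-squared per degree of freedom 12.9 to 168). Alternatives were limma-voom (limma 3.58.1, the tool of the study), DESeq2 1.42.0, median-of-ratios factors, other filters, a stricter threshold, a replicate block, only the groups compared, pooled sham samples, and leaving out samples. Promoter windows came from RefSeq tables on GRCr8. H3K4me3 peak lists were not used, since their rn5 positions could not be tied to genes with the references at hand. Symbols of the lists absent from the table were not analysed here.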

Additional observations from a re-analysis of the deposited data

Results flagged for a closer look

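In both day 14 groups the lowest Bcl2l11 sample stood below the other 3 by a gap that, as a share of the group's range, was above Dixon's 95% critical value for 4 samples. In sham day 14, replicate 4 had 0.435 CPM and the others 0.524 to 0.541 CPM (gap over range 0.843). That sample had 8 counts and the others 8, 9 and 10. In TBI day 14, replicate 1 had 0.398 CPM and the others 0.762 to 0.795 CPM (gap over range 0.916). These values rest on 6 to 16 counts per library. They are 2 of 42 groups examined in this way, and chance alone marks about 1 group in 20.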

How the results depend on the processing

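Of the member results, the rise of Mcl1 and Bak1 at day 1 passed under every alternative that kept both sham day 1 samples. Bax and Bbc3 lost their calls in the fits named in the report. Over all fits without 1 sample, including those that left 1 sham day 1 library, log2 values were 0.88 to 0.997 for Mcl1 and 0.93 to 1.26 for Bak1. The number of members called at day 1 was 5 with a replicate block and 5 with all 6 sham samples as 1 group, against 3 as reported. Over all genes, the block gave 1468 higher and 1178 lower and the pooled sham 2332 and 2066, against 1437 and 1021. The number of members thus moved together with the calls over all genes. At an adjusted p under 0.01 the number of members was 2, with the call of Bax lost, beside 788 genes higher and 299 lower. At day 14 it was 0 at an adjusted p under 0.01, 2 with only the groups compared and 0 without the 3 samples rich in choroid plexus RNA, against 1. In the same order, the calls over all genes were 348 higher and 18 lower, 912 and 204, and 538 and 18, against 524 and 47. DESeq2 called 3 members for the difference between days, against 0 by edgeR (3 at an unadjusted p under 0.05) and 0 by limma-voom. For TBI day 1 against sham day 14 the number of members was 3 at an adjusted p under 0.01, beside 2360 genes higher and 1687 lower. For sham against sham it was 0 at that threshold (497 genes higher and 255 lower) and 0 with only the groups compared (1261 and 1147). Leaving out 1 TBI sample gave 2 to 5 members at day 1, beside 1301 to 1673 genes higher and 829 to 1471 lower. At day 14, leaving out 1 sample gave 0 to 1, beside 375 to 529 genes higher and 21 to 46 lower. For the difference between days it gave 0 to 1 with both sham day 1 samples kept (171 to 390 genes higher and 78 to 300 lower). Leaving out 1 sham day 14 sample gave 0 to 2 between shams (807 to 1492 genes higher and 519 to 1207 lower), with 0 without replicate 1, 2 or 4. Without sham day 1 replicate 1, which left 1 sample in that group, the log2 value of Bax between shams was -0.61.

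Signs turned only for log2 values that passed no test. At day 1 Bcl2l1 was 0.035 with at least 10 counts in every sample, 0.028 with only the groups compared, 0.29 with pooled sham samples and 0.0089 without the 3 choroid plexus samples. Bcl2l11 was 0.20 and 0.11 in the last 2 of these, and Bcl2 was 0.45 with pooled sham samples. Bad at day 14 was -0.0034 by limma-voom, -0.0055 with the replicate block and -0.18 without the 3 samples. Between shams Bad was -0.17 without them, and Pmaip1 was -0.025 by limma-voom, -0.0061 by DESeq2, -0.0054 with median-of-ratios factors, -0.028 with at least 10 counts, -0.22 with the block, -0.024 with only the groups compared and -0.45 without the 3 samples. The difference between days of Bcl2 was -0.25 with the block. Leaving out 1 sample at day 1 gave -0.45 to 0.093 for Bcl2, -0.028 to 0.037 for Bcl2l1, -0.036 to 0.38 for Bad and -0.26 to 0.14 for Bcl2l11. At day 14 it gave -0.076 to 0.081 for Bad, and for the difference between days -0.042 to 0.37 for Bad. Between shams it gave -0.48 to 0.26 for Bid, -0.18 to 0.24 for Bad and -0.46 to 0.36 for Pmaip1. The causes were not tested.

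The replicate numbers were not taken as pairs, since the labels tie them to nothing shared and only 5 of 18 same-numbered pairs had correlated deviations over 0.1. With the block, Bbc3 and Pmaip1 were added at day 1 and Bcl2 between shams. It ended the call of E2f1 at day 1 and of no other named gene of the pathway lists. Bcl2l11 and Bcl2 had the fewest counts, 6 to 20 and 11 to 83 per library.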
